A study of Arabidopsis thaliana with 12 samples.

Results

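CYP706A1 to CYP706A7 are 7 cytochrome P450 genes of Arabidopsis thaliana, described here on arrays from wild-type seedlings grown with or without 3 related indazoles. The members were found by locus, AT4G22690 for CYP706A1, AT4G22710 for CYP706A2, AT5G44620 for CYP706A3, and AT4G12300, AT4G12310, AT4G12320 and AT4G12330 for CYP706A4 to CYP706A7. They held 9 of the 43603 probes and 7 of the 23556 genes tested. CYP706A1 had 3 probes and each of the others had 1. All 7 members passed the filter on dim probes, and each of their 9 probes stood well above background on all 12 arrays. The family was chosen by its signal on the 3B7N arrays against the others, which was already known, so its values in every comparison that holds 3B7N arrays are a description and carry no test.

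Cytochromes P450 are heme enzymes that insert an oxygen atom into their substrate, with electrons that mostly come from an NADPH-dependent reductase in the endoplasmic reticulum membrane. The CYP706 family belongs to the plant 71 clan, the branch that holds many enzymes of specialised metabolism. CYP706A3 of Arabidopsis oxidises terpenes in flowers, and relatives in other plants act on sesquiterpenes, such as CYP706B1 of cotton in the route to gossypol and CYP706M1 of Alaska cedar in nootkatone formation. In the RefSeq gene order CYP706A4, CYP706A5, CYP706A6 and CYP706A7 follow each other with no gene between them. CYP706A1 and CYP706A2 have a single gene, LBD32, between them, and CYP706A3 stands apart from both clusters.

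All seedlings were wild type of the cultivar Col-0, raised from seed on agar medium. The medium held 3-bromo-7-nitroindazole (3B7N), or 3-bromoindazole, written 3BRO, or 7-nitroindazole, written 7NIT, each at 2.5 µM, and the controls had dimethyl sulfoxide (DMSO), the solvent. Thus 3BRO is 3B7N without its nitro group, and 7NIT is 3B7N without its bromo group. After 3 days of cold and darkness the plants spent 4 days in continuous blue light at 10 µmol m-2 s-1, and whole seedlings were harvested. Each of the 4 treatments had 3 single-colour arrays hybridised with Cy3-labelled cRNA. Whether a treatment's 3 arrays are from separate cultures is not in the labels, so each p-value rests on the spread among these arrays, and that spread may be technical. The design text of the series also names the cry1cry2 genotype, which was not analysed here.

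The 75th percentile of the processed signal lay between 1764 and 3729 over the 12 arrays, from 1764 to 2204 with DMSO and from 3311 to 3729 with 3B7N, a range that overlapped that of 7NIT (2757 to 3458). Levels below are the log2 of the processed signal minus that percentile of the same array, so that a level of 0 is the array's 75th percentile. Each array had from 77.1% to 84.6% of its probes well above background, no spot was saturated (0 on each array), and the number of arrays limits the precision. The arrays lay on 3 slides. Slide 1 held the 3 DMSO arrays and 3BRO replicate 1. Slide 2 held 3BRO replicates 2 and 3 with 3B7N replicates 1 and 2, and slide 3 held the 3 7NIT arrays with 3B7N replicate 3. Slide 1 was scanned on a first day and slides 2 and 3 on a second. No slide or scan day held both DMSO and 3B7N or both DMSO and 7NIT, and no slide held both 7NIT and 3BRO.

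CYP706A6 had by far the widest range of the 7 members. Its processed signal was 685.2, 840.3 and 705.9 on the DMSO arrays, 806.1, 663 and 491 on the 3BRO arrays, 1064, 631.9 and 1096 on the 7NIT arrays, and 18.7, 69.78 and 47.05 on the 3B7N arrays. The 3B7N arrays were all below the other 9 arrays, with no overlap. The level of CYP706A6 was -1.41 ± 0.10 (SD, n = 3) with DMSO, -1.78 ± 0.59 with 7NIT, -2.00 ± 0.40 with 3BRO and -6.50 ± 0.88 with 3B7N. In that order the neighbours DMSO and 7NIT, and 7NIT and 3BRO, overlapped, and the step from 3BRO to 3B7N was larger than the spread in either group. With 3B7N the level was lower than with DMSO by 5.09 log2 units (limma estimate -5.09, SE 0.41), a 34.2-fold lower signal. It was 22.6-fold lower than with 3BRO (-4.50 log2 units, SE 0.41) and 26.4-fold lower than with 7NIT (-4.72, SE 0.41). The size of these folds depends on the background correction, and after normexp correction of the spot medians the change against DMSO was -3.74. Ranked by log2 change among all genes, CYP706A6 was the lowest but 1 in each of these 3 comparisons.

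**Figure D1:**
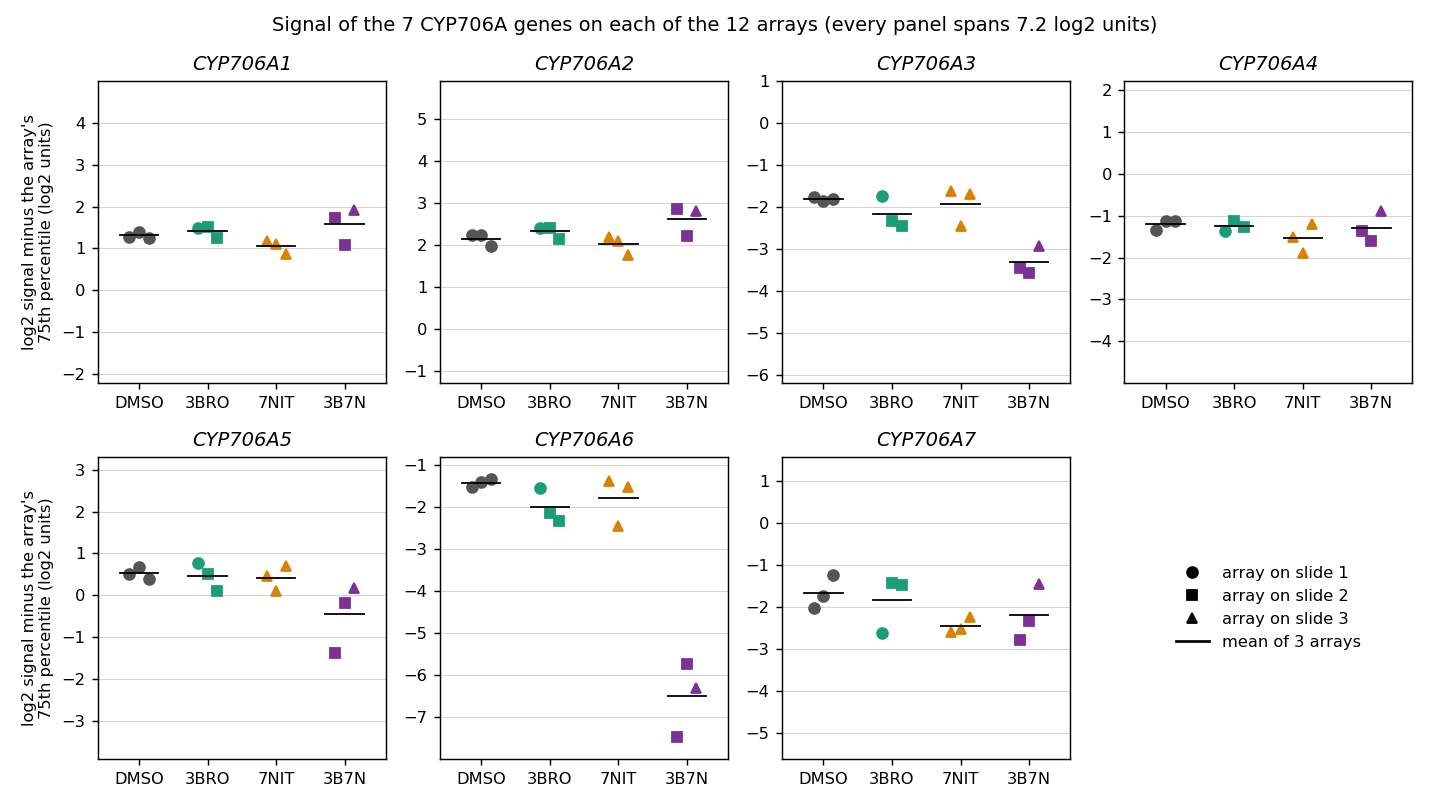
Each panel plots 1 CYP706A gene, with the log2 signal minus the array's 75th percentile on the y axis and the 4 treatments on the x axis. Points are arrays, their shape gives the slide, and the line is the mean of 3 arrays. The panels span equal ranges but differ in their limits. CYP706A6 lies between -7.47 and -5.74 on the 3B7N arrays and between -2.45 and -1.32 on the other 9.

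CYP706A3, the terpene-oxidising member known from flowers, was the other gene of the family with 3B7N arrays below all others. Its level was -1.76, -1.86 and -1.81 on the DMSO arrays, -1.75, -2.34 and -2.45 on the 3BRO arrays, -1.63, -2.45 and -1.70 on the 7NIT arrays, and -3.45, -3.57 and -2.93 on the 3B7N arrays. The 3B7N arrays were the 3 lowest, and the arrays of DMSO, 3BRO and 7NIT overlapped. Part of that separation came with the scaling, since the processed signal of 3B7N replicate 3 was 487.2, above the 451.4 of 3BRO replicate 3. Mean levels were -1.81 ± 0.05 with DMSO, -1.93 ± 0.46 with 7NIT, -2.18 ± 0.38 with 3BRO and -3.32 ± 0.34 with 3B7N (SD, n = 3). The level with 3B7N was 2.85-fold lower than with DMSO (-1.51 log2 units, SE 0.26), 2.20-fold lower than with 3BRO (-1.14, SE 0.26) and 2.62-fold lower than with 7NIT (-1.39, SE 0.26).

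CYP706A5, the gene next to CYP706A6 in the tandem array, was lower with 3B7N in the mean but uneven between arrays. Its processed signal was 2811, 3534 and 2302 with DMSO, 4036, 4160 and 2637 with 3BRO, 3785, 3716 and 5070 with 7NIT, and 1289, 3300 and 4226 with 3B7N. Replicate 1 of 3B7N was far below the other 2, which read within the range of the remaining groups before scaling. The level of CYP706A5 was 0.53 ± 0.15 with DMSO, 0.46 ± 0.34 with 3BRO, 0.42 ± 0.30 with 7NIT and -0.45 ± 0.81 with 3B7N (SD, n = 3). All 3 levels with 3B7N (-1.36 to 0.18) were below the 3 with DMSO (0.38 to 0.68), but they overlapped those with 3BRO and 7NIT. The change against DMSO was -0.98 log2 units (SE 0.34), and without 3B7N replicate 1 it was -0.52.

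The remaining tandem genes, CYP706A4 before CYP706A5 and CYP706A7 after CYP706A6, showed no separation of the 3B7N arrays. CYP706A4 read 774.8, 1008 and 803 with DMSO, 919.8, 1320 and 1016 with 3BRO, 972.6, 927.5 and 1360 with 7NIT, and 1288, 1231 and 2003 with 3B7N. Its level was -1.20 ± 0.12, -1.26 ± 0.11, -1.54 ± 0.35 and -1.29 ± 0.36 in the same order (SD, n = 3), and all 4 groups overlapped. The change of CYP706A4 with 3B7N against DMSO was -0.08 log2 units (SE 0.21). CYP706A7 read 478.8, 656.6 and 743.6 with DMSO, 385.1, 1080 and 889.9 with 3BRO, 456.3, 598 and 658.4 with 7NIT, and 476.5, 732 and 1354 with 3B7N. Its level was -1.68 ± 0.40, -1.84 ± 0.67, -2.46 ± 0.18 and -2.20 ± 0.68 (SD, n = 3), with 7NIT below DMSO on every array and the other pairs of groups overlapping. The change of CYP706A7 with 3B7N against DMSO was -0.53 log2 units (SE 0.38), with overlapping arrays. Signals of 1 gene are not set against those of another here, since the response of each probe differs.

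CYP706A1 and CYP706A2, the pair around LBD32, had estimates above 0 with 3B7N for their brightest probes. CYP706A2 read 9163, 10240 and 6905 with DMSO, 12510, 15500 and 10780 with 3BRO, 12560, 14600 and 10610 with 7NIT, and 23780, 17190 and 26110 with 3B7N. The 3 processed signals with 3B7N were the highest of the 12, but as levels 3B7N replicate 2 (2.20) fell among the DMSO arrays (1.97 to 2.22). Mean levels of CYP706A2 were 2.01 ± 0.22 with 7NIT, 2.14 ± 0.14 with DMSO, 2.32 ± 0.16 with 3BRO and 2.62 ± 0.36 with 3B7N (SD, n = 3), and each neighbouring pair in that order overlapped. Against DMSO the change with 3B7N was 0.48 log2 units (SE 0.19) and against 7NIT it was 0.61 (SE 0.19), where all 3 arrays with 3B7N were above all 3 with 7NIT.

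For CYP706A1 the brightest probe read 4776, 5825 and 4223 with DMSO, 6602, 8350 and 5813 with 3BRO, 6247, 7392 and 5735 with 7NIT, and 10980, 7955 and 13990 with 3B7N. Its level was 1.05 ± 0.16 with 7NIT, 1.31 ± 0.08 with DMSO, 1.41 ± 0.15 with 3BRO and 1.58 ± 0.43 with 3B7N (SD, n = 3). The groups DMSO, 3BRO and 3B7N overlapped, while the 3 arrays with 7NIT (0.87 to 1.18) were below those with DMSO (1.26 to 1.40) and 3BRO (1.24 to 1.52). The 3 probes of CYP706A1 disagreed on the sign of the change with 3B7N against DMSO, at 0.26 log2 units for the brightest and -0.07 and -0.03 for the dimmer ones, so no direction is given for this gene.

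**Figure D2:**
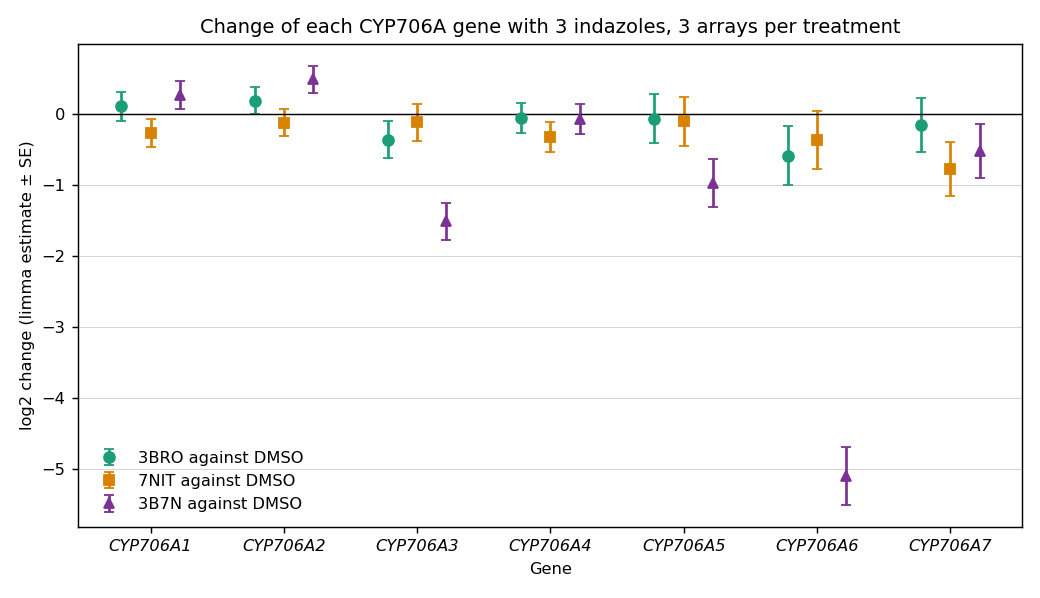
Limma estimates of the log2 change of each CYP706A gene against DMSO are plotted on the y axis for 3BRO (circles), 7NIT (squares) and 3B7N (triangles), with bars of 1 SE and 3 arrays per treatment. CYP706A6 lies at -5.09 with 3B7N and CYP706A3 at -1.51, while the 14 changes with 3BRO and 7NIT lie between -0.78 and 0.18.

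Neither compound with a single substituent changed a member past the threshold, an adjusted p of 0.05 over all genes tested by limma with Benjamini-Hochberg adjustment. With 3BRO against DMSO, 0 of 7 members passed (0 at an unadjusted p under 0.05), where 0.00425% of all genes passed. The log2 changes ran from -0.59 to 0.18 with a median of -0.07, beside a median of -0.02 over all genes. CYP706A6 was lower on all 3 arrays with 3BRO than on any with DMSO, and its change of -0.59 had a 95% confidence interval from -1.50 to 0.32 (limma adjusted p = 1.0). For CYP706A3 the change was -0.37, with an interval from -0.94 to 0.20 (limma adjusted p = 1.0). The groups were apart for 1 of the 7 members and for 9.12% of all genes. On slide 1, the only slide with both treatments, 3BRO replicate 1 differed from the 3 DMSO arrays by -0.14 log2 units for CYP706A6, 0.06 for CYP706A3 and -0.94 for CYP706A7.

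With 7NIT against DMSO, 0 of 7 members passed (0 at an unadjusted p under 0.05), where 0.0255% of all genes passed. All 7 estimates, each from a gene's brightest probe, were below 0, from -0.78 to -0.11. Their median was -0.27, beside 0.03 over all genes and -0.20 over the 191 other P450 genes tested. CYP706A7 had the largest, at -0.78 log2 units with a 95% interval from -1.63 to 0.06 (limma adjusted p = 0.65), and its 3 arrays with 7NIT were below the 3 with DMSO. The same held for the brightest probe of CYP706A1, at -0.27 with an interval from -0.70 to 0.17 (limma adjusted p = 0.73), so that 2 of 7 members were apart, against 18% of all genes. For CYP706A6 the change was -0.37, with an interval from -1.28 to 0.54 (limma adjusted p = 0.82). The dimmer probes of CYP706A1 were at 0.02 and -0.33, with overlapping groups. No slide or scan day held both groups. With scan day as a block, an estimate that reaches DMSO only through 3BRO replicate 1, CYP706A3 was at 0.53 and CYP706A5 at 0.36. In that fit CYP706A6 was at 0.31 and CYP706A2 at 0.01. CYP706A1, CYP706A4 and CYP706A7 stayed below 0 under that block. With slide as a block, an estimate that reaches DMSO only by way of 3BRO and 3B7N arrays, the change of CYP706A7 was -3.06 (limma adjusted p = 0.062) and that of CYP706A6 was 0.01 (limma adjusted p = 1.0).

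The test of 7NIT against 3BRO compares the compound without the bromo group with the one without the nitro group at the same dose. Its estimates use no array of DMSO or 3B7N, but its SEs, p-values and intervals rest on a spread pooled over all 12 arrays, as do those of the other tests. It passed for 0 of 7 members (0 at an unadjusted p under 0.05), where 0.0212% of all genes passed. The changes ran from -0.62 for CYP706A7, with a 95% interval from -1.47 to 0.23, to 0.25 for CYP706A3, with an interval from -0.32 to 0.82 (limma adjusted p = 0.64 and 0.79). For CYP706A6 the difference was 0.22 with an interval from -0.69 to 1.13 (limma adjusted p = 0.90). These intervals leave room for differences between the compounds of up to 1.13 log2 units for CYP706A6. By its brightest probe CYP706A1 was lower on all 3 arrays with 7NIT than with 3BRO, at -0.36 (interval -0.80 to 0.07, limma adjusted p = 0.59), while another of its probes was at -0.13 with overlapping groups. It was the single member whose groups were apart, where 16.7% of all genes were. Within the second scan day, which held 2 of the 3 arrays with 3BRO, the difference was -1.01 for CYP706A7 and 0.45 for CYP706A6.

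In the comparisons that the choice of the family rests on, the calls are given only beside their background. With 3B7N against DMSO 2 of 7 members were called, both lower (CYP706A3 and CYP706A6), and 10% of all genes were called lower and 15.6% either way. Against 3BRO the same 2 were called, with 4.75% of all genes lower and 7.49% either way. Against 7NIT 3 were called, CYP706A3 and CYP706A6 lower and CYP706A2 higher (a call kept in 3 of 14 alternatives), with 12.5% of all genes lower, 6% higher and 18.5% either way. The 3B7N and DMSO groups were apart for 3 of 7 members and for 34.5% of all genes. The median change of the 7 members was -0.53 against DMSO, -0.36 against 3BRO and 0.25 against 7NIT, where those of all genes were -0.01, -0.01 and -0.04. The comparisons share their 3B7N arrays, so their values are not independent of each other.

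The compound that carries both substituents can be set against the sum of the changes with each of the compounds that carry 1. For CYP706A6 the changes with 3BRO and 7NIT summed to -0.96 log2 units and that with 3B7N was -5.09, a difference of -4.13 (SE 0.58). For CYP706A3 the sum was -0.49 and the change with 3B7N -1.51, a difference of -1.02 (SE 0.37). CYP706A5 had a sum of -0.18 beside -0.98, a difference of -0.80 (SE 0.49). Without 3B7N replicate 1 the difference of CYP706A5 was -0.35, and that of CYP706A6 ranged from -4.51 to -3.65 as each array was left out. The other 4 members had differences between 0.31 and 0.43, with SEs of 0.27 to 0.54. Among these, CYP706A7 was at 1.94 with slide as a block, 1.20 with scan day blocked and 0.08 after normexp correction of the spot medians, and CYP706A4 was at 0.80 with slide blocked and 0.09 after normexp correction. For CYP706A1 the difference was 0.06 with the mean of its probes. CYP706A6 had the largest difference in size, and after normexp correction it was at -2.75.

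Slide and scan day moved with the treatments, and their part in the results against DMSO was not tested beyond the values that follow. Within slide 2, 3B7N replicates 1 and 2 differed from 3BRO replicates 2 and 3 by -4.37 log2 units for CYP706A6 and by -1.11 for CYP706A3. Within slide 3, 3B7N replicate 3 differed from the 3 arrays with 7NIT by -4.53 for CYP706A6 and -1.01 for CYP706A3. In both slides no array with 3B7N overlapped the others for these 2 genes. CYP706A5 differed by -1.08 within slide 2 and by -0.24 within slide 3, where 3B7N replicate 3 overlapped the 7NIT arrays. CYP706A7 turned sign between slides, at -1.12 within slide 2 and 1.00 within slide 3, and so did CYP706A4, at -0.27 and 0.64. CYP706A2 was higher within both, at 0.25 and 0.80.

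Other processing changed the size of these values. With slide as a block the change with 3B7N against DMSO was -4.51 for CYP706A6, -1.05 for CYP706A3 and -2.06 for CYP706A7. With scan day as a block these were -4.41, -0.86 and -1.69, so the value for CYP706A7 rests on how slides are handled. Under either block, the estimates of all genes against DMSO reach DMSO only through 3BRO replicate 1. It was the sole array of another treatment on slide 1 and on the first scan day. For CYP706A7 that array was at -2.62, and 3BRO replicates 2 and 3 were at -1.43 and -1.47. After normexp background correction of the spot medians CYP706A6 was lower by -3.74 log2 units against DMSO, -3.09 against 3BRO and -3.40 against 7NIT. Leaving out each array in turn gave -5.48 to -4.61 for CYP706A6 and -1.70 to -1.38 for CYP706A3 against DMSO. The authors' deposited table for 3B7N against DMSO holds 1779 probes and gives folds with no direction. There the probe of CYP706A6 had a fold of 34.09, the highest in the table, and that of CYP706A3 a fold of 2.84. These folds come from the same arrays as the values above and are no separate support. The authors' deposited table for 7NIT against DMSO lists 14 probes, and 0 of them belong to the family.

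**Figure D3:**
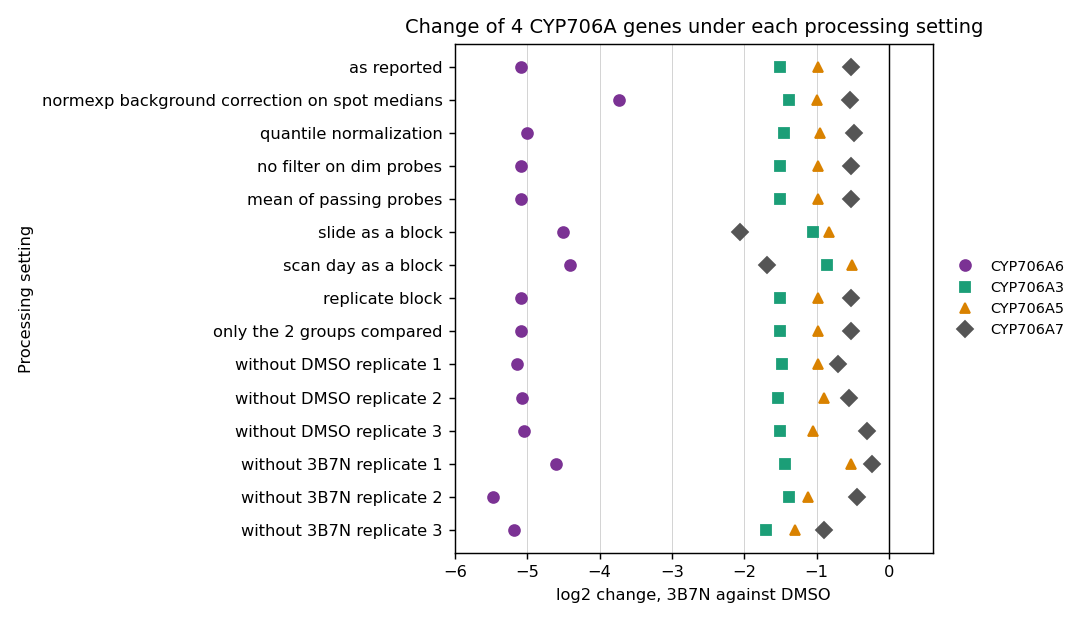
The log2 change with 3B7N against DMSO is plotted on the x axis for CYP706A6 (circles), CYP706A3 (squares), CYP706A5 (triangles) and CYP706A7 (diamonds), with 1 row per processing setting on the y axis. CYP706A6 stays between -5.48 and -3.74 in every setting shown, while CYP706A7 moves from -0.53 as reported to -2.06 with slide as a block.

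Some members moved together across arrays. Over the 12 arrays the levels of CYP706A3 and CYP706A6 had a Pearson r of 0.93, and over the 9 arrays without 3B7N an r of 0.96. Over those 9 arrays CYP706A3 was the third most like CYP706A6 of 23555 other genes, and over all 12 it was number 489. Both were low on 3BRO replicates 2 and 3 and on 7NIT replicate 2, at -2.13, -2.33 and -2.45 for CYP706A6 and -2.34, -2.45 and -2.45 for CYP706A3, while the other 6 arrays without 3B7N lay between -1.55 and -1.32 and between -1.86 and -1.63. The 3 low arrays lie on slides 2 and 3, and the 2 genes are not neighbours in the gene order. As deviations from the means of the 4 treatments the pair had an r of 0.54. CYP706A1 and CYP706A2 had an r of 0.93 over 12 arrays and 0.90 over 9, and CYP706A2 was the gene most like CYP706A1 over the 12. As deviations from treatment means these had an r of 0.93. With the mean of all probes of CYP706A1 in place of the brightest, r was 0.57 over 12 arrays and 0.55 over 9. Values of the same array share its hybridisation and scaling, groups differ in level, and no p is given.

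**Figure D4:**
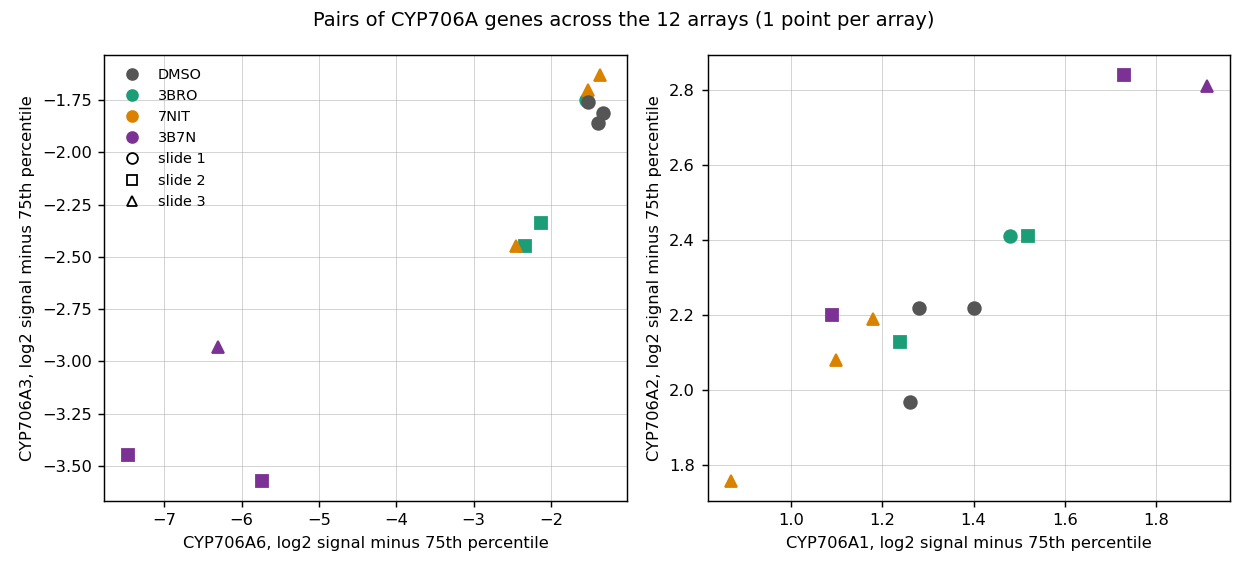
Each point is 1 of the 12 arrays, with the levels (log2 signal minus the array's 75th percentile) of CYP706A6 and CYP706A3 on the left axes and of CYP706A1 and CYP706A2 on the right axes. Colours are treatments and shapes are slides. On the left the 3B7N arrays lie apart from the rest, and the other 9 arrays fall into 6 higher and 3 lower ones.

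Within the tandem array the genes did not move as a unit. CYP706A5 followed CYP706A6 with an r of 0.83 over 12 arrays and 0.71 over 9, and as deviations from treatment means with 0.82. With CYP706A3 its r was 0.81 and 0.73. CYP706A4 and CYP706A7, the outer genes of the array, had an r of 0.69 and 0.68 with each other. CYP706A6 and CYP706A7, which are adjacent, had an r of 0.20 over 12 arrays and -0.08 over 9, and CYP706A6 and CYP706A4 had -0.03 and 0.47.

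**Figure D5:**
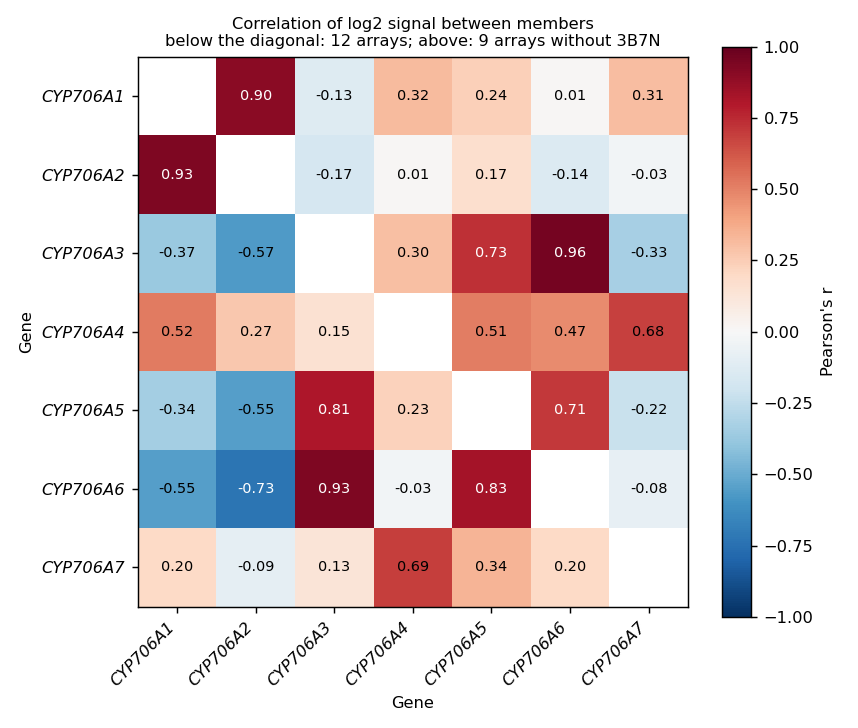
The matrix gives Pearson's r of log2 levels for the 21 pairs of CYP706A genes, over 12 arrays below the diagonal and over the 9 arrays without 3B7N above it, on a colour scale from -1 to 1. The highest values are those of CYP706A3 with CYP706A6 (0.93 and 0.96) and of CYP706A1 with CYP706A2 (0.93 and 0.90).

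Of the genes outside the family, those whose levels were most like CYP706A6 over the 12 arrays were AT1G52770 (r = 0.996), scpl42, a serine carboxypeptidase-like gene (0.990), ACS10, of the ACC synthase family (0.990), AT1G66540 (0.990) and AT4G00895 (0.986). Over the 9 arrays without 3B7N their r with CYP706A6 lay between 0.832 and 0.879. The most opposed were AT5G38710 (-0.992), AT5G45280 (-0.975) and SNRK2.5, a protein kinase gene (-0.975), of which AT5G38710 kept an r of -0.943 over the 9 arrays. With 3B7N against DMSO, AT1G52770 was at -3.36 log2 units, scpl42 was at -0.56, and AT5G38710 at 2.70. An r above 0.9 over the 12 arrays was found for 814 of 23549 genes and one below -0.9 for 292, so such values were common where the 3B7N arrays stand apart.

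The genes that flank the family gave values of another kind. AT4G12290, the gene before CYP706A4, rose with 3B7N against DMSO by 0.83 log2 units (SE 0.21, limma adjusted p = 0.022), while AT4G12334, after CYP706A7, was at 0.35 (SE 0.21, limma adjusted p = 0.27). The call of AT4G12290 was lost with slide as a block (0.95, limma adjusted p = 0.23), after normexp correction (0.65, limma adjusted p = 0.27) and with scan day blocked (0.82, limma adjusted p = 0.30). It was also lost in a fit of the 2 groups alone (0.83, limma adjusted p = 0.074), without DMSO replicate 1 (0.71, limma adjusted p = 0.086) and without 3B7N replicate 1 (0.63, limma adjusted p = 0.064). MYB85, a transcription factor of secondary walls that precedes CYP706A1, was at 0.66 (SE 0.58, limma adjusted p = 0.47), and AT4G22720, after CYP706A2, at -0.16 (SE 0.17, limma adjusted p = 0.55). MAP18, a microtubule-associated protein gene before CYP706A3, was at -0.09 (SE 0.26, limma adjusted p = 0.84). LBD32 and AT5G44630 (TPS11), a terpene synthase gene that follows CYP706A3, did not pass the filter on dim probes.

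Among 233 other P450 genes listed by name, 191 were tested. With 3B7N against DMSO 16 rose and 33 fell by limma's adjusted p, 8.38% and 17.3% of those tested, beside 5.6% and 10% of all genes, and their median change was -0.09. In the 71 clan, to which CYP706 belongs, 8 rose and 25 fell of 116 (6.90% and 21.6%), with a median of -0.22, and in the other clans 8 rose and 8 fell of 75, with a median of 0.13. With 3B7N against 3BRO 15 of the 191 rose and 12 fell (7.85% and 6.28%, with 4.75% of all genes lower). Against 7NIT 28 rose and 25 fell (14.7% and 13.1%, beside 6% and 12.5% of all genes). In the 71 clan 7 rose and 11 fell against 3BRO, and 13 rose and 17 fell (11.2% and 14.7%) against 7NIT. Over the 191, falls thus outnumbered rises only against DMSO. In the 3 comparisons without 3B7N, 0 of the 191 passed, as 0 of the 7 members did.

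Of the P450 genes with a CYP name in the RefSeq table, those that fell most with 3B7N against DMSO were CYP71B36 at -3.35 log2 units (SE 0.25, limma adjusted p = 7.4e-05), CYP71A25 at -2.47 (SE 0.25, limma adjusted p = 0.00029), CYP71A22 at -2.34 (SE 0.19, limma adjusted p = 0.00011), CYP94D1 at -2.33 (SE 0.59, limma adjusted p = 0.023) and FAH1 (CYP84A1) at -2.27 (SE 0.30, limma adjusted p = 0.0011). FAH1 is the ferulate 5-hydroxylase of sinapate and lignin synthesis. CYP706A6, at -5.09, was thus lower than any other of these P450 genes called. CYP94D1 was well above background on 3 of 3 DMSO arrays but 1 of 3 with 3B7N, so its value and place in this order are uncertain. It lost its call after normexp correction (-0.86, limma adjusted p = 0.44) and without any 1 of DMSO replicates 1, 2 and 3 and 3B7N replicates 1 and 2 (limma adjusted p from 0.054 to 0.072).

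Those that rose most were CYP71A13, of camalexin synthesis, by 4.49 log2 units (SE 0.49, limma adjusted p = 0.00043), CYP96A4 by 2.53 (SE 0.48, limma adjusted p = 0.0063), CYP708A3 by 2.31 (SE 0.17, limma adjusted p = 5.9e-05), CYP96A13 by 2.09 (SE 0.33, limma adjusted p = 0.0024) and CYP96A15, the mid-chain alkane hydroxylase of stem wax, by 2.05 (SE 0.36, limma adjusted p = 0.0041). CYP71A13 and CYP96A13 were well above background on 0 of 3 DMSO arrays and on 3 of 3 with 3B7N. Their log2 changes, SEs, p-values and places in this order rest on DMSO values not above background and are uncertain. Bounded from the background level, their differences were at least 6.78-fold and at least 1.14-fold on the processed signal. After normexp correction CYP71A13 was at 0.35, CYP96A4 at 1.22, CYP96A15 at 0.52 and CYP96A13 at -0.49, a turned sign, and none of these 4 passed. With slide as a block the same 4 did not pass either (limma adjusted p of 0.077, 0.13, 0.29 and 0.33), while CYP708A3 passed under both.

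Terpene synthases, which make the substrates of enzymes such as CYP706A3, were mostly too dim to test, with 8 of 19 listed genes passing the filter. With 3B7N against DMSO TPS12 rose by 2.26 log2 units (SE 0.64, limma adjusted p = 0.038), AT5G48110 rose by 1.19 (SE 0.31, limma adjusted p = 0.027), and AT4G20210 fell, at -0.79 (SE 0.22, limma adjusted p = 0.035). The other 5 did not pass. Each of these 3 calls was lost under some alternatives. TPS12, well above background on 2 of 3 DMSO arrays, did not pass without any 1 of the 6 arrays (limma adjusted p from 0.061 to 0.12) or after normexp correction (0.25, limma adjusted p = 0.82). AT4G20210 did not pass without any 1 of DMSO replicates 1, 2 and 3 and 3B7N replicates 1 and 3 (limma adjusted p from 0.054 to 0.12) or with slide as a block (-0.20, limma adjusted p = 0.81). AT5G48110 did not pass without 3B7N replicate 1 (1.04, limma adjusted p = 0.085) or replicate 2 (1.23, limma adjusted p = 0.053) or with slide as a block (1.40, limma adjusted p = 0.26).

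Of 9 listed P450 genes of terpenoid metabolism, which the 191 above include, 6 were tested and 0 passed with 3B7N against DMSO, with log2 changes from -0.86 for CYP76C1 to 1.58 for CYP82G1. Of the 6, 1 was called higher with 3B7N than with 7NIT, where 6% of all genes were. It was CYP708A2, the thalianol hydroxylase, by 3.43 (SE 0.69, limma adjusted p = 0.0075), named here after its value was seen. Against DMSO CYP708A2 was at -2.02 with 7NIT and at 1.41 with 3B7N, and neither passed (limma adjusted p = 0.56 and 0.19). All 7 listed redox partners of P450s were tested and 0 passed with 3B7N against DMSO. The NADPH-P450 reductase genes ATR1 and ATR2 were at 0.31 (SE 0.12, limma adjusted p = 0.097) and 0.41 (SE 0.21, limma adjusted p = 0.21), and the cytochrome b5 genes CB5-E, CB5-D and CB5-B at 0.04, -0.01 and -0.39.

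Markers of plant parts also moved with 3B7N against DMSO. With 3B7N against 3BRO and against 7NIT, 0 of 4 green tissue and 0 of 4 root markers passed. In those comparisons 4.75% and 12.5% of all genes were lower. The median changes of the green tissue and root markers against DMSO were -0.30 and -0.16 with 3BRO. With 7NIT they were -0.43 and -0.54. Of 4 green tissue markers 4 fell against DMSO, with log2 changes from -0.81 for RBCS1A to -0.53 for LHCB1.3, beside the 10% of all genes that were lower. Of 4 root markers 3 fell, PYK10 at -0.49, COBL9 at -1.19 and PRP3 at -1.81 (limma adjusted p = 0.028, 0.040 and 0.036), while EXPA7, at -1.48, did not pass (limma adjusted p = 0.064). The summed signal of the root markers, relative to the array's 75th percentile, was 107 to 133 with DMSO, 99.1 to 115 with 3BRO, 87.6 to 98 with 7NIT and 75.4 to 86.4 with 3B7N. That of 3 green tissue markers was 485 to 682, 445 to 502, 387 to 474 and 335 to 406 in the same order. RBCS1A, with a value on 11 of the 12 arrays, is left out of that sum. Both lists stood well above background in the whole seedlings, and their part in the values of the family was not tested. In whole seedlings fewer cells of a type and less RNA per cell cannot be told apart. Of the 5 flower markers, AP1 was above background on 0 arrays and AG on 4, while AP3, PI and SEP3 passed on all 12 with a summed signal over the 5 genes of 0.109 to 0.253. Seed reserve markers summed to 0.0794 to 2.45, and 0 of the 2 tested passed with 3B7N against DMSO.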

How the data were processed

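Levels come from 12 single-colour arrays, 3 per treatment. The authors deposited a scanner file per array, with spot intensity on a linear scale. The submitters' processing notes name Agilent Feature Extraction 10.7.3.1. Per the file headers, its processed signal is background-corrected. The authors' deposited table gives corrected p-values and linear fold ratios of 2 or more, without direction. How those p-values were corrected is not stated in the labels or headers.

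The log2 processed signal minus the array's 75th percentile was used, without control spots and outlier flags. Tests took the 35746 of 43603 probes that 1 or more groups had well above background on 3 of 3 arrays, and the brightest such probe stood for each of 23556 genes. Signals of 3BRO replicate 2 are rounded to 3 significant digits in the file. Symbols and gene order came from RefSeq, which held 23305 of these genes. The array's build is older, so no coordinates are given. All arrays entered 1 limma fit (3.58.1, R 4.3.3, lmFit and eBayes) with 1 coefficient per treatment, with Benjamini-Hochberg adjustment per comparison (6 in all) and a threshold of 0.05. The procedure was tested on simulated data.

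Members and gene lists were chosen with earlier results of these data known. Named genes were all members, their neighbours, the 5 highest and 5 lowest called P450s, the 3 and 3 of each other list, and the 5 most and 3 least like CYP706A6 by r. The alternatives tried were normexp (offset 50), quantile normalization, no filter on dim probes, the mean of passing probes, slide, scan day or replicate number as a block, the 2 groups alone, and leaving out each array. The files hold no mean spot signal, so normexp ran on spot medians, an alternative chosen after seeing the data. Its offset of 50, added to every corrected signal, draws changes of dim probes towards 0. Deviations from group means correlated at -0.16 to 0.44 between same-numbered arrays (median 0.14, 11 of 18 pairs over 0.1) and at -0.38 to 0.33 between others (median -0.06, 6 of 36 over 0.1). Same-numbered arrays thus had the higher median, and whether they share a source was not tested. The labels name no shared source and not every such pair was over 0.1, so the main fit did not pair samples. Replicate number was tried as a block instead.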

Additional observations from a re-analysis of the deposited data

How the results depend on the processing

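The members called lower or higher were counted again under each alternative. With 3B7N against 3BRO the 2 members called became 1 after normexp correction, with scan day as a block and in a fit of the 2 groups alone, 3 (with CYP706A7) with slide as a block, and 1 to 2 when arrays were left out in turn. With 3B7N against 7NIT the 3 became 1 with slide as a block, 2 (without CYP706A2) after normexp correction, with no filter on dim probes, with the mean of passing probes, with scan day as a block and in the fit of 2 groups, and 2 to 4 with arrays left out. With 3B7N against DMSO the 2 became 1 with scan day as a block and 2 to 3 with arrays left out. CYP706A6 was called in 14 of 14 alternatives in each of these comparisons. CYP706A3 was called in 12, 7 and 13 of 14 against DMSO, 3BRO and 7NIT, and CYP706A2 in 3 of 14 against 7NIT. The family was chosen by its signal on these 3B7N arrays, so the tallies describe the settings and carry no test. With slide as a block, where DMSO is reached only through 3BRO replicate 1, the 2 called against DMSO were CYP706A6 and CYP706A7. In the 3 comparisons without 3B7N, 0 members were called under every alternative run. With the replicate block the members called were 2, 2 and 3, as reported, and all genes called with 7NIT against DMSO went from 6 to 13. That count was 35 with slide as a block, 101 with scan day as a block, 12 after quantile normalization, 2 after normexp correction and 0 to 1 with arrays left out. With 3BRO against DMSO 1 became 42 and 37 under the slide and scan day blocks and 0 after normexp correction or in the fit of 2 groups. With 7NIT against 3BRO 5 became 0 and 12 under those blocks, 8 after quantile normalization, 1 after normexp correction and 1 to 5 with arrays left out.

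Counts over all genes with 3B7N against DMSO fell from 3682 to 1714 after normexp correction, 764 with slide as a block, 610 with scan day as a block and 1873 in the fit of the 2 groups. Against 3BRO 1763 became 654, 1160, 1192 and 223, and against 7NIT 4367 became 2400, 1957, 4588 and 3151. With arrays left out these counts were 2112 to 3189, 843 to 1656 and 2101 to 4145. The cause was not tested. CYP96A13 reversed to -0.49 after normexp correction. The 3 arrays per group limit the precision of all these values.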
